A study of Mus musculus with 6 samples.

Results

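Notch pathway genes were followed in granulosa cells (GCs) of the mouse ovary: the receptors *Notch1*, *Notch2* and *Notch3*, the ligands *Jag1* and *Jag2*, and the response genes *Hes1*, *Hey1*, *Hey2*, *Heyl* and *Nrarp*. These 10 genes were taken by name, with earlier results of these data known, and all 10 were found among the 54532 genes of the deposited table. Of these, 9 had a mean of at least 0.5 FPKM (fragment counts divided by gene length and by depth) over the samples and were tested with the 14463 genes that passed the same filter. *Nrarp* did not pass it. RNA-seq was performed on 6 samples in 2 groups. GCs came from 3-week-old ICR females, all primed with 5 IU of PMSG, a gonadotropin that starts follicular growth. After a further 22 h the mice received PBS in one group and 120 mg/kg of cyclophosphamide (CTX), an alkylating chemotherapeutic, in the other, and GCs were taken 6 h after that. Each group had 3 samples, each pooled from the GCs of 3 mice, so a sample is an average over animals. In such bulk RNA, fewer cells of a type and less RNA per cell cannot be told apart.

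Notch signalling passes between touching cells. A ligand such as Jagged1 on one cell binds a Notch receptor on its neighbour, the receptor is cut first by an ADAM protease and then by gamma-secretase, and the freed intracellular domain enters the nucleus, where it joins RBPJ and Mastermind proteins and raises the transcription of *Hes* and *Hey* genes. In the mouse ovary the pathway is known for its part in the breakdown of germ cell nests and the formation of primordial follicles, with Jagged1 made by oocytes and NOTCH2 by GCs. NOTCH3 is best known from the mural cells of small arteries.

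The comparison asked which genes change in GCs 6 h after CTX treatment. Of the 9 members tested, *Notch3* and *Hes1* rose and none fell by more than 2-fold with an adjusted p-value below 0.05, which is what is meant by called below. *Notch3* went from a mean of 0.307 to 4.02 FPKM and *Hes1* from 4.06 to 13.6 FPKM. Of all genes tested, 0.802% were called higher and 0.159% were called lower. At an unadjusted p-value below 0.05, limma had 3 members higher, against 10.5% of all genes tested, and 2 lower, against 9.10%. With voom, 1 member (*Hes1*) was called higher and 0 lower, against 107 and 18 of all 14463 genes tested. The CTX samples all exceeded the PBS samples in 4 of the 9 members (*Notch3*, *Hes1*, *Heyl* and *Notch1*), against 15.0% of all genes tested. They were all below the PBS samples in 2 (*Notch2* and *Hey2*), against 14.1%. The groups overlapped in *Jag1*, *Jag2* and *Hey1*. The median log2 fold change was 0.24 over the 9 members and -0.01 over all genes tested. *Notch3* and *Notch1* had PBS means of 0.307 and 0.473 FPKM, under the filter, and passed it only through their CTX samples. They could therefore enter these counts and the median only as genes with a higher CTX mean.

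**Figure D1:**
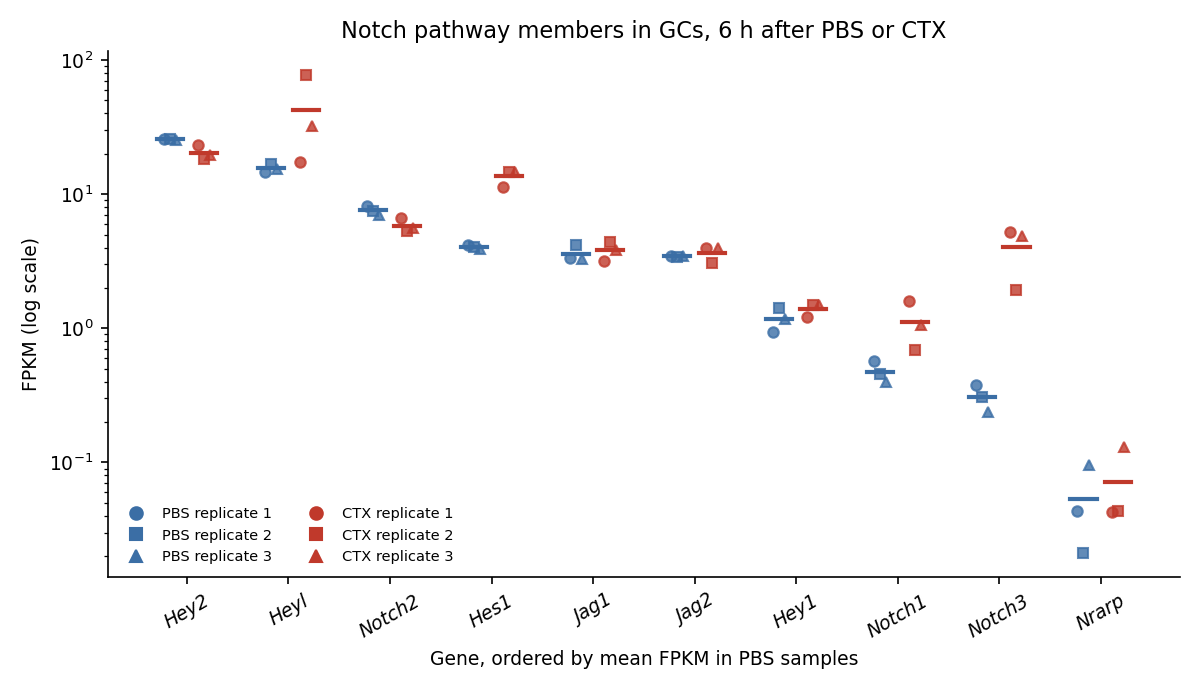
FPKM on a log axis of the 10 genes in each of the 6 samples, with PBS samples in blue, CTX samples in red, a marker shape for each replicate number and a bar for each group's mean. *Notch3* moved from the ninth place among the PBS means to the fifth among the CTX means, and *Heyl* was spread from 17.5 to 77.7 FPKM among the CTX samples.

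The samples held 16005869 to 18455011 reads on genes, rebuilt from FPKM and gene length, so 3 reads per kilobase of gene were worth 0.164 to 0.185 FPKM. No pair of replicates agreed within sampling noise: the chi-square averaged over genes was 3.81 to 6.62 for pairs of PBS samples and 15.1 to 72.5 for pairs of CTX samples. CTX replicate 2 stood apart, at 74.7 on the first principal component (46.8% of the variance) against -26.6 to 13.2 for the other samples. The cells carried GC markers. All 10 genes of a GC list were above the filter, led by the inhibin subunit gene *Inha* at 9606 ± 689 FPKM after PBS and 8889 ± 314 FPKM after CTX treatment (mean ± SD, n = 3).

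In the PBS samples, *Hey2* was the highest of the 10 genes at 25.6 ± 0.413 FPKM (mean ± SD, n = 3), above 84.9% of the tested genes. *Heyl* followed at 15.5 ± 1.02 FPKM, *Notch2* at 7.57 ± 0.605 FPKM and *Hes1* at 4.06 ± 0.139 FPKM. *Jag1* had 3.59 ± 0.492 FPKM and *Jag2* 3.44 ± 0.0595 FPKM. The ranges of *Hes1* and *Jag1* overlapped, as did those of *Jag1* and *Jag2*, so these neighbours did not differ beyond their spread. *Hey1* lay lower at 1.18 ± 0.237 FPKM, *Notch1* at 0.473 ± 0.0877 FPKM and *Notch3* at 0.307 ± 0.0694 FPKM, which was above 0.498% of the tested genes. Its PBS mean and that of *Notch1* were under the filter of 0.5 FPKM and both genes passed it through the CTX samples, which fixed their low places. *Nrarp* was last at 0.0534 ± 0.0382 FPKM. In the CTX samples the order changed, with *Heyl* first and overlapping *Hey2*. The range of *Notch3* then overlapped those of *Jag1* and *Jag2*, and *Nrarp* was still last.

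The ligands were compared first. *Jag1* (chromosome 2, 137081456 to 137116644, minus strand, GRCm38) encodes a transmembrane ligand with a DSL domain. It had 3.35, 4.16 and 3.26 FPKM in the PBS samples and 3.18, 4.43 and 3.86 FPKM in the CTX samples, in replicate order. *Jag2* (chromosome 12, 112907819 to 112929776, minus strand) encodes a close relative. It had 3.47, 3.38 and 3.48 FPKM after PBS and 3.95, 3.04 and 3.95 FPKM after CTX treatment. In both genes CTX samples lay above and below the PBS samples. The log2 fold change was 0.08 for *Jag1* (95% interval -0.30 to 0.46, adjusted p = 0.782, limma) and 0.07 for *Jag2* (-0.23 to 0.37, adjusted p = 0.767, limma). The upper bounds correspond to rises of 1.38-fold in *Jag1* and 1.30-fold in *Jag2*. The direction of *Jag1* turned when CTX replicate 2 was left out (log2 fold change -0.03).

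The Delta-like ligand genes were near the lower limit of detection. *Dll1* had a mean of 0.159 FPKM after PBS and 0.264 FPKM after CTX treatment, *Dll3* 0.162 and 0.144 FPKM, and *Dll4* 0.0717 and 0.111 FPKM, and none of them passed the filter. *Jag1* made up 48.2% ± 3.97 of the summed FPKM of the 5 ligand genes after PBS and 47.8% ± 7.20 after CTX treatment (SD, n = 3 each). This difference was smaller than the spread between replicates (two-sided exact permutation test, p = 0.90). The sum itself was 7.43 ± 0.424 FPKM after PBS and 7.99 ± 0.307 FPKM after CTX treatment (two-sided exact permutation test, p = 0.20). With 3 samples against 3, an exact permutation test cannot go below p = 0.10.

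Among the receptors, *Notch3* (chromosome 17, 32120820 to 32166880, minus strand) showed the largest change of all 9 members tested. Its values were 0.377, 0.305 and 0.238 FPKM in the PBS samples, from 54, 45 and 31 reads. In the CTX samples they were 5.23, 1.93 and 4.90 FPKM, from 763, 276 and 706 reads. The lowest CTX sample, replicate 2, was still above every PBS sample. The ratio of the means was 13.1. On the log2(FPKM + 0.1) scale, which understates the change of low genes, the log2 fold change was 3.23 (standard error 0.40, 95% interval 2.26 to 4.20, adjusted p = 0.019, limma with Benjamini-Hochberg adjustment). In this fit 7 of the 14463 genes tested had a higher log2 fold change. *Notch3* passed the filter only through its CTX samples, so this rank was partly fixed by the filter. Without CTX replicate 2 the ratio of the means was 16.5 and the log2 fold change 3.68 (adjusted p = 1.1e-03, limma). The call was lost with voom (adjusted p = 0.0685) and with a replicate block (adjusted p = 0.078, limma). It was also lost in 4 of the 6 limma fits that left out a sample (without PBS replicate 1, 2 or 3 or CTX replicate 3, adjusted p from 0.087 to 0.105). The log2 fold change in all these fits was 3.03 to 3.56.

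*Notch2* (chromosome 3, 98013527 to 98150361, plus strand) was the main receptor gene of the GCs after PBS. It had 8.21, 7.47 and 7.01 FPKM in the PBS samples and 6.61, 5.32 and 5.55 FPKM in the CTX samples. The groups did not overlap, and the highest CTX sample was close to the lowest PBS sample. The log2 fold change of -0.37 (adjusted p = 0.163, limma, with a standard error of 0.11) did not pass the test. With arrayWeights its adjusted p-value was 2.5e-03 (limma), at a change under 2-fold. *Notch1* (chromosome 2, 26457903 to 26516663, minus strand), the best studied receptor of the family, had 0.568, 0.456 and 0.395 FPKM after PBS and 1.59, 0.685 and 1.06 FPKM after CTX treatment. All CTX samples were higher, with replicate 2 again the lowest of them. The rise of 1.02 on the log2 scale, with a standard error of 0.34, did not pass the test (adjusted p = 0.191, limma). It did so with arrayWeights (adjusted p = 5.0e-03, limma). There CTX replicate 3 had a weight of 16.6, against 0.304 and 0.163 for CTX replicates 1 and 2. The estimate of these weights, also used for *Notch2*, stopped before it converged. *Notch4*, known from endothelial cells, had means of 0.147 FPKM after PBS and 0.187 FPKM after CTX treatment and was not tested.

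The make-up of the receptor RNA shifted in each CTX sample. *Notch2* was 88.4%, 89.0% and 90.0% of the summed FPKM of the 4 receptor genes after PBS and 48.6%, 65.5% and 47.4% after CTX treatment. *Notch3* was 4.06%, 3.63% and 3.05% after PBS and 38.4%, 23.8% and 41.8% after CTX treatment. The *Notch2* share was lower by 35.3 percentage points on average, with no overlap between the groups (two-sided exact permutation test, p = 0.10). The sum of the 4 receptor genes was 8.49 ± 0.753 FPKM after PBS and 11.1 ± 2.79 FPKM after CTX treatment, and its groups overlapped (two-sided exact permutation test, p = 0.30). Within a sample, *Notch3* stood at 0.0339 to 0.0459 of the *Notch2* level after PBS and at 0.364 to 0.883 of it after CTX treatment.

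**Figure D2:**
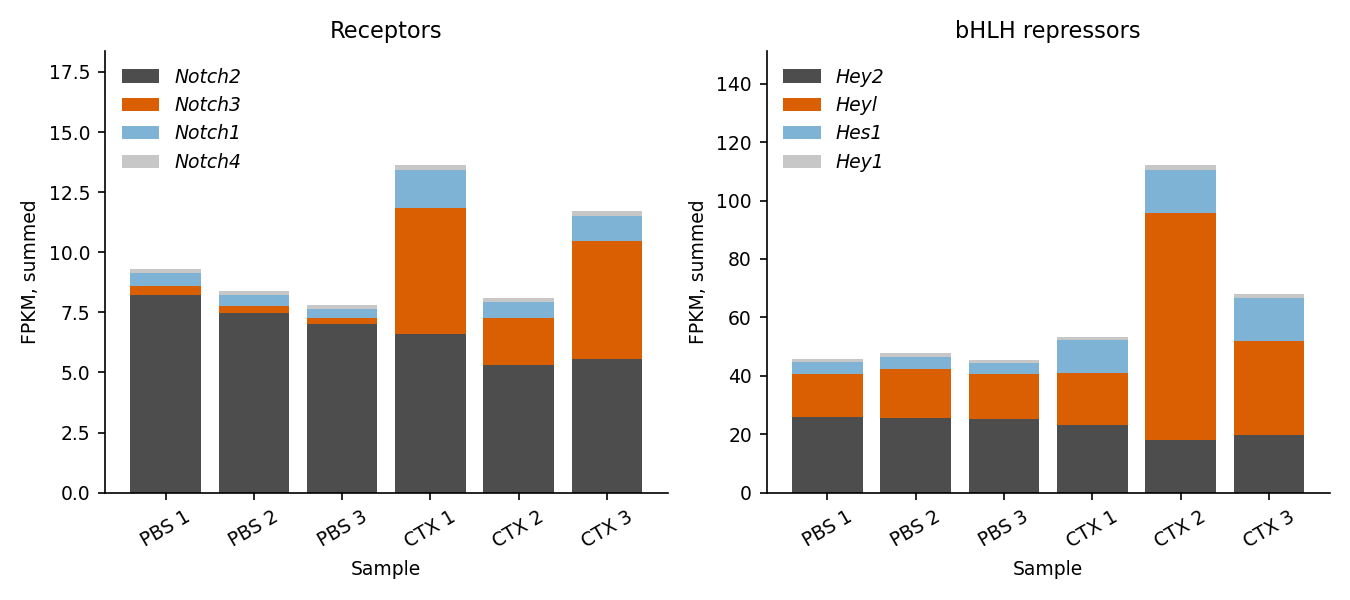
Stacked FPKM of the 4 receptor genes (left) and of the 4 repressor genes with a basic helix-loop-helix domain (right) in each of the 6 samples, on linear axes from 0. *Notch3* took 23.8% to 41.8% of the receptor sum in the CTX samples against at most 4.06% in the PBS samples, and *Heyl* took 69.4% of the repressor sum in CTX replicate 2.

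The bases before the start of *Notch3* and *Notch2* are shown because these receptor genes lay on opposite sides of their PBS samples after CTX treatment. The sequences come from RefSeq on GRCm38.p6, cover the 250 bases before the start and read 5′ to 3′ on the gene's strand. *Notch3* lies at chr17:32166891-32167140 on the minus strand and *Notch2* at chr3:98013288-98013537 on the plus strand. Capitals mark the N box CACNAG, a sequence bound by HES proteins, on either strand.
Notch3: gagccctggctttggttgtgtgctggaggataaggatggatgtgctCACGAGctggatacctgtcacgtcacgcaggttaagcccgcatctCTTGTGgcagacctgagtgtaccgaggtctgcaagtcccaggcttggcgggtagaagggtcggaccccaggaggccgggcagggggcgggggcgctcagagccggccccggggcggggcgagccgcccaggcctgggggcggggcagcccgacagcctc
Notch2: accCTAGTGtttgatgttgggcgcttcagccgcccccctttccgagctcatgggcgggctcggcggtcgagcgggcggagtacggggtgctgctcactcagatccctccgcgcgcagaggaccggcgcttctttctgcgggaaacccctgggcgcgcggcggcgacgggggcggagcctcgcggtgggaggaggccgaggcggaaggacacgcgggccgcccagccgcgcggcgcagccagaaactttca
The *Notch3* window held 2 such matches, with their leftmost bases at -204 and -159 from the start, and the *Notch2* window held 1, at -247. Of all 32851 RefSeq windows, which run from 250 bases before to 50 after the start, 42.5% hold at least 1 match on either strand, so the letters are common. Windows were given for 7 of the 10 members, and 4 of the 7 held CACNAG. Besides the pair shown, *Notch1*, whose CTX samples were also all above the PBS samples, held 3 matches, and *Nrarp* held 2. *Hes1*, *Hey1* and *Heyl* have no entry.

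*Hes1* (chromosome 16, 30064384 to 30067796, plus strand) encodes a repressor with a basic helix-loop-helix domain and is the classical target of Notch. Its values were 4.19, 4.07 and 3.91 FPKM in the PBS samples, from 152, 152 and 129 reads. In the CTX samples they were 11.4, 14.7 and 14.7 FPKM, from 420, 530 and 536 reads. The groups were far apart, and the PBS values spread by 3.43% of their mean (coefficient of variation), less than the 8.32% that read counting alone gives on average. The log2 fold change was 1.71 (standard error 0.12, 95% interval 1.43 to 1.99, adjusted p = 1.9e-03, limma with Benjamini-Hochberg adjustment). *Hes1* was called under every alternative run, with a log2 fold change from 1.52 to 1.83 and an adjusted p-value of at most 0.039 (limma and voom).

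*Heyl* (chromosome 4, 123233556 to 123249875, plus strand) encodes a repressor of the Hey family. It had 14.7, 16.7 and 15.3 FPKM after PBS and 17.5, 77.7 and 32.4 FPKM after CTX treatment. All CTX samples were higher, but by 1.13-, 5.0- and 2.08-fold over the PBS mean, so that the highest and lowest CTX samples differed by 4.44-fold. The log2 fold change of 1.18 (standard error 0.50, 95% interval -0.02 to 2.38, adjusted p = 0.260, limma) did not pass the test. Without CTX replicate 2 it was 0.62 (adjusted p = 0.24, limma). It passed with arrayWeights (adjusted p = 4.3e-03, limma), where CTX replicate 2 had a weight of 0.163 and CTX replicate 3 a weight of 16.6, in an estimate that stopped before it converged.

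*Hey2* (chromosome 10, 30832359 to 30842801, minus strand), another repressor of this family, had 26.0, 25.6 and 25.2 FPKM in the PBS samples and 23.3, 18.2 and 19.6 FPKM in the CTX samples. All CTX samples were lower, and the log2 fold change of -0.34, with a standard error of 0.10, did not pass the test (adjusted p = 0.161, limma). Its adjusted p-value was 1.5e-03 with arrayWeights (limma), where the estimate of the weights had not converged. It was 0.0425 without CTX replicate 1 (limma), and the change was under 2-fold in both fits. The third gene of the family, *Hey1* (chromosome 3, 8663359 to 8667256, minus strand), had 0.945, 1.42 and 1.17 FPKM after PBS and 1.22, 1.502 and 1.49 FPKM after CTX treatment. Its groups overlapped, and the log2 fold change was 0.24 (95% interval -0.24 to 0.72, adjusted p = 0.514, limma).

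The 250 bases before the start of *Hey2* are shown because it was the only member among the 7 with a window that held TGGGAA, the core bound by RBPJ. They lie at chr10:30842784-30843033 on the minus strand of GRCm38.p6 (RefSeq), and capitals mark the core, here on the other strand.
Hey2: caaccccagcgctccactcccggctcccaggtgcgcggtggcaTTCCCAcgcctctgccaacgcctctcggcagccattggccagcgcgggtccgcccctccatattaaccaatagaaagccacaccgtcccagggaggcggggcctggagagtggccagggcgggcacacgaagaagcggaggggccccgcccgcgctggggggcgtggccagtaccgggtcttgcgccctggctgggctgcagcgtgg
The match marked has its leftmost base at -207. Another spans the start from -3 and is not within these bases. Both are also matches of the longer GTGGGAA, which contains the core. On both strands, 25.6% of the 32851 windows hold TGGGAA, 3.79% hold it more than once and 6.38% hold GTGGGAA. The class B E box CACGTG was found in *Nrarp* alone among the 7, apart from its CACNAG matches, and in 7.15% of all windows.

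*Hes1* took 9.15%, 8.52% and 8.58% of the summed FPKM of *Hes1*, *Hey1*, *Hey2* and *Heyl* after PBS and 21.3%, 13.1% and 21.6% after CTX treatment. The difference was 9.90 percentage points, with no overlap (two-sided exact permutation test, p = 0.10), and 4.87 points in reads not divided by gene length. The share of *Hey2* was 55.2% ± 1.56 after PBS and 29.5% ± 13.7 after CTX treatment, with all CTX samples lower, and that of *Heyl* was 33.5% ± 1.43 and 49.9% ± 18.4, with overlapping groups (mean ± SD, n = 3). The sum was 46.4 ± 1.22 FPKM after PBS and 53.4, 112 and 68.1 FPKM in the CTX samples. All CTX sums were higher (two-sided exact permutation test, p = 0.10). The ratio of *Hes1* to *Hey2* ran from 0.155 to 0.161 after PBS and from 0.489 to 0.807 after CTX treatment.

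*Nrarp* (chromosome 2, 25180758 to 25183339, plus strand), an ankyrin-repeat protein that limits Notch signalling by feedback, was covered by 2, 1 and 4 reads in the PBS group and by 2, 2 and 6 in the CTX group. No difference was detectable with so few reads. An antisense gene, *Gm38287*, with a mean of 0 FPKM, covers 2051 of its 2582 bases, and whether shared reads were lost from *Nrarp* was not tested. Reads of the 2 genes cannot be told apart without strand, which the sources used here do not give. The same holds for at most 488 bases of *Notch3* and 1068 bases of *Notch1*. In 541 bases of *Notch2* the overlapping gene lies on the same strand, so strand would not separate the reads there. The genes that overlap these 3 receptor genes had means of at most 0.202 FPKM.

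**Figure D3:**
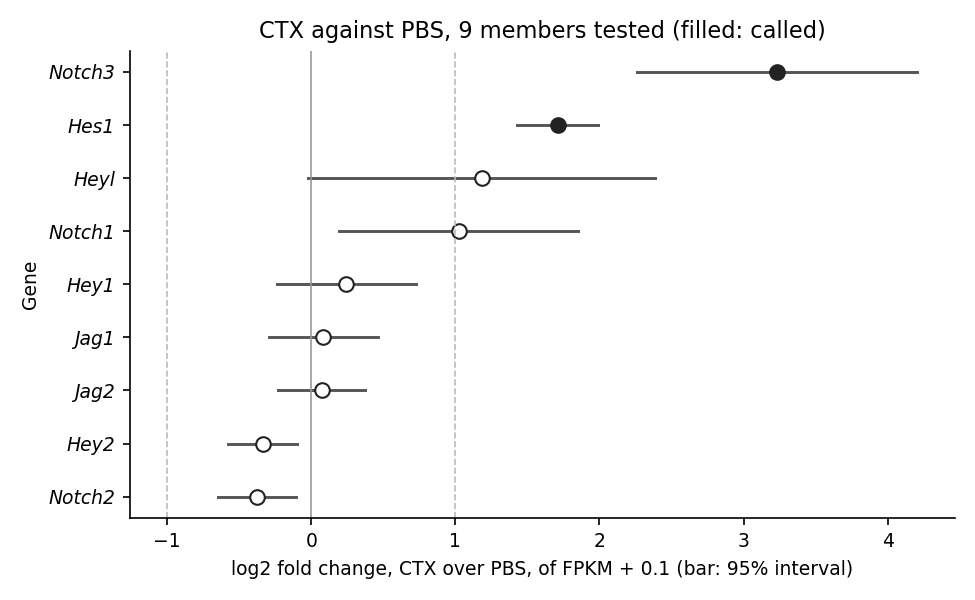
Log2 fold change (CTX against PBS) on the FPKM + 0.1 scale for the 9 members tested, with bars for limma's 95% interval, filled points for called genes and dashed lines at 2-fold. *Notch3* (3.23) and *Hes1* (1.71) were called, and the intervals of *Heyl*, *Hey1*, *Jag1* and *Jag2* include 0.

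A wider pathway list of 63 genes (ligands, receptors, their processing enzymes, the nuclear complex, targets and regulators) held 53 genes besides the members, of which 42 were tested. Of these 42, limma called 0 and voom called 0. At an unadjusted p-value below 0.05, limma had 3 higher, against 10.5% of all genes tested, and 1 lower, against 9.10%. The CTX samples were all above the PBS samples in 8 of the 42 and all below in 5, against 15.0% and 14.1% of all genes tested, and the median log2 fold change was 0.00. Among the 17 tested genes for processing, led by the ADAM protease gene *Adam10*, the highest log2 fold change was 0.09 and the lowest -0.77. *Adam10* had 56.7 ± 2.44 FPKM after PBS and 60.1 ± 2.61 FPKM after CTX treatment (mean ± SD, n = 3), a log2 fold change of 0.08. Among the 16 genes of the nuclear complex, CTX samples lay above in 6 and below in 2, beside the same 15.0% and 14.1% over all genes. The corepressor gene *Ctbp1* was the highest of them, at 57.2 ± 2.79 and 55.7 ± 1.36 FPKM. *Rbpj*, named after its values were seen, had 3.05, 3.11 and 2.80 FPKM after PBS and 3.23, 4.80 and 3.50 FPKM after CTX treatment, and its log2 fold change of 0.33 did not pass the test (adjusted p = 0.301, limma). The 9 regulators were led by *Dtx3* at 28.9 ± 2.56 and 29.6 ± 3.76 FPKM.

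The GC markers also varied among the CTX samples. *Heyl* was highest in CTX replicate 2, then 3, then 1. Of the 10 GC markers, 4 had this order (*Amh*, *Amhr2*, *Esr2* and *Wt1*), 5 had the reverse (*Foxl2*, *Fshr*, *Cyp19a1*, *Inhba* and *Nr5a1*) and *Inha* had neither. The share of all genes tested with either order was not counted. The first principal component, with 46.8% of the variance, also ran in this order (74.7, 13.2 and -9.81). The counts are therefore no link between *Heyl* and these markers. Markers in the order of *Heyl* included *Amh* (178.7, 85.5 and 54.3 FPKM), *Wt1* (13.6, 6.09 and 3.39 FPKM) and the oestrogen receptor gene *Esr2* (136.2, 74.4 and 51.5 FPKM). Aromatase (*Cyp19a1*) ran in the reverse order at 6.61, 32.5 and 47.6 FPKM, and so did the LH receptor gene *Lhcgr*, listed with the theca markers, at 1.48, 53.1 and 128.6 FPKM, against 111.2 FPKM on average after PBS. These genes were named after their values were seen, and their part in the *Heyl* values was not tested. limma called 0 of the 10 GC markers, and voom called 0. At an unadjusted p-value below 0.05, limma had 3 lower, against 9.10% of all genes tested, and 0 higher, against 10.5%. CTX samples lay below in 5 of them and above in 2, against 14.1% and 15.0% of all genes tested.

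**Figure D4:**
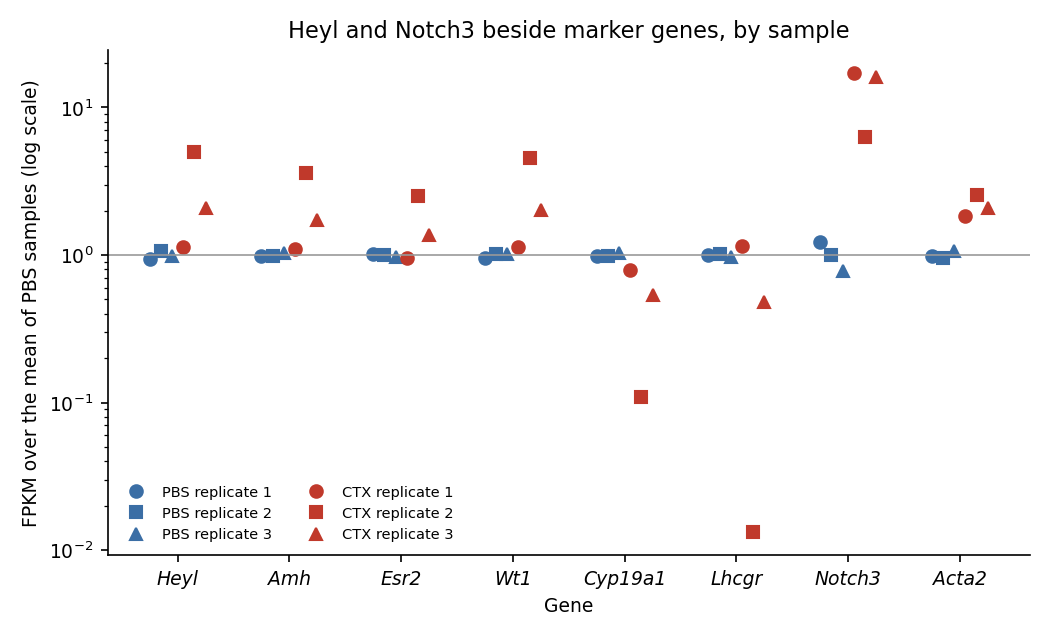
FPKM in each sample divided by the mean of the PBS samples, on a log axis, for *Heyl* and *Notch3* and 6 marker genes, with PBS samples in blue and CTX samples in red. In CTX replicate 2, *Heyl* stood at 5.0, *Amh* at 3.62 and *Lhcgr* at 0.0133 of the PBS mean, and *Notch3* at 6.31, its lowest among the CTX samples.

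Markers of other cells were listed beside *Notch3*, since mural cells also make it. The summed level of 9 pericyte and smooth muscle genes was 12.2 to 13.6 FPKM after PBS and 21.05 to 25.4 FPKM after CTX treatment. *Acta2*, smooth muscle actin, made up most of this sum and rose from 8.06 ± 0.482 to 17.3 ± 2.93 FPKM (log2 fold change 1.08, adjusted p = 0.017, limma). CTX samples lay above in 2 of the 4 tested genes of the list (15.0% of all genes tested), and 5 of the 9 were under the filter. No gene of the list was at 0 in all samples, and the pericyte gene *Rgs5* had at most 0.231 FPKM in any sample. *Pdgfrb*, a pericyte receptor gene, had 2.46 ± 0.0625 FPKM after PBS and 2.35 ± 0.768 FPKM after CTX treatment, with overlapping groups. *Cspg4*, another pericyte gene, had 0.936, 0.882 and 0.900 FPKM after PBS and 1.29, 2.30 and 1.66 FPKM after CTX treatment, and its log2 fold change of 0.84 did not pass the test (adjusted p = 0.140, limma). *Rgs5*, *Pdgfrb* and *Cspg4* were named after their values were seen. The 10 endothelial genes, led by *Cdh5*, summed to 7.91 to 8.32 FPKM after PBS and 3.74 to 7.53 FPKM after CTX treatment. The 8 theca genes summed to 147.6 to 151.0 and 11.1 to 163.7 FPKM, mostly from *Lhcgr*, which GCs also make, except in CTX replicate 2. The 10 oocyte genes, led by *Gdf9*, summed to 37.5 to 79.2 and 51.7 to 92.9 FPKM, and the 10 leukocyte genes, led by *Lyz2*, to 22.6 to 27.0 and 26.1 to 70.5 FPKM. Among the CTX samples, *Notch3* was lowest, and *Acta2* and the leukocyte sum highest, in replicate 2. The part of these cells in the *Notch3* result was not tested.

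**Figure D5:**
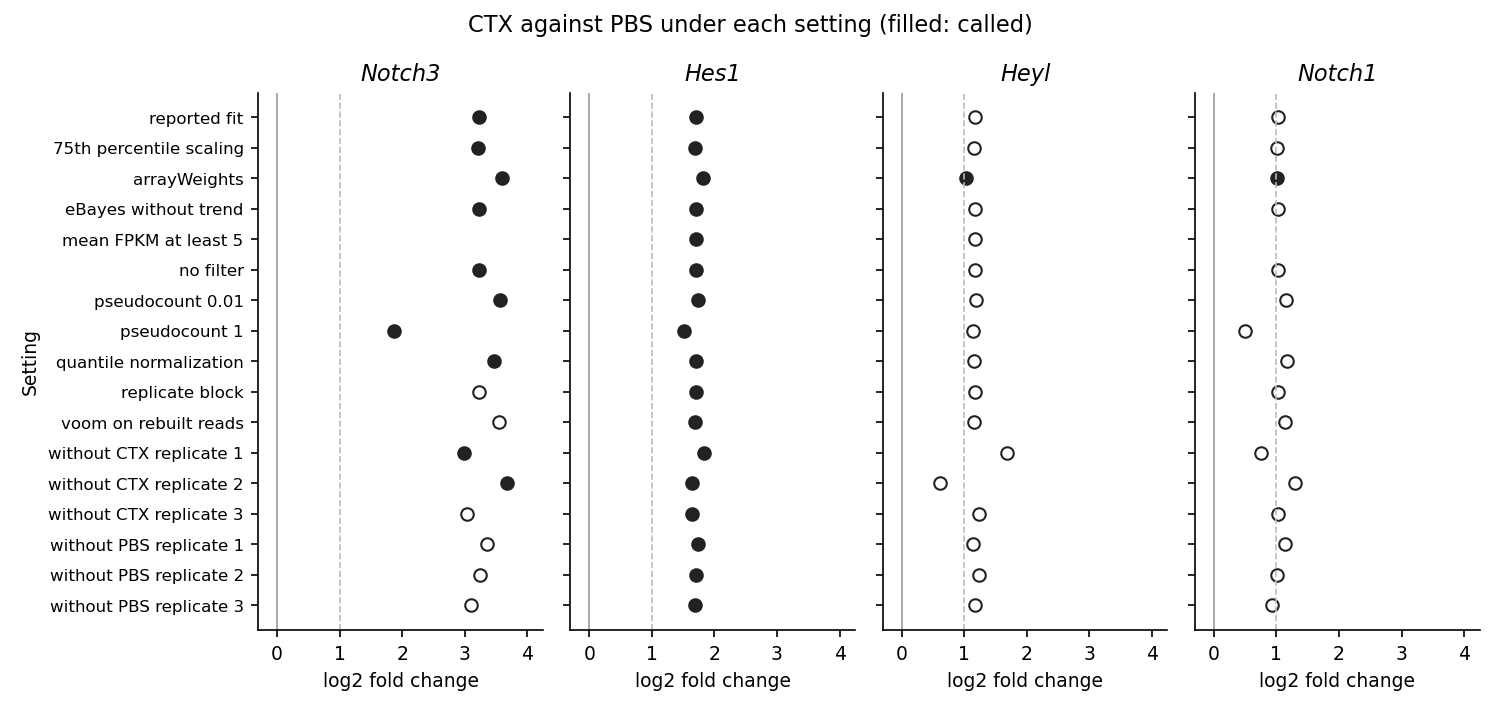
Log2 fold change (CTX against PBS) for *Notch3*, *Hes1*, *Heyl* and *Notch1* in the reported fit and in each alternative that could be run on it, with filled points where the gene was called and a dashed line at 2-fold. *Hes1* was called in all of its fits, and *Notch3* stayed between 1.87 and 3.68.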

How the data were processed

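The authors deposited FPKM values for 6 samples, which carry their own scaling between samples. The submitters' processing notes name CASAVA 1.8, fastp, HISAT2 2.0.5, featureCounts 1.5.0-p3, DESeq2 1.20.0 and mm10, without roles. Columns deposited beside them hold the authors' group means as a signal, a log2 fold change, a p-value and an adjusted p-value, and none of these was used. Times gene length, 100% of the nonzero FPKM were whole multiples of 1 read (tolerance 0.02), so reads were rebuilt.

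Genes with a mean of at least 0.5 FPKM were compared between CTX and PBS as log2(FPKM + 0.1) with limma 3.58.1 (lmFit, eBayes with trend) in R 4.3.3. The Benjamini-Hochberg adjustment ran over all 14463 genes tested. Called genes changed by more than 2-fold at an adjusted p-value below 0.05. Shares were compared with two-sided exact permutation tests over samples. The alternatives were limma's voom on the rebuilt reads, other pseudocounts, filters and scalings, arrayWeights, no trend, no fold threshold, each sample left out, and a replicate block. The fits were tested on simulated data. Tables and figures were made in Python 3.11.15 with pandas 2.3.3 and matplotlib 3.10.9.

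Members and lists were chosen with earlier results of these data known. All members were named. Of the wider list, called genes and the highest gene of each subgroup were named, and of the marker lists the highest gene. Other genes named were chosen after their values were seen. Coordinates are those of the deposited table. Samples with the same replicate number hold different mice, and the reported fit has no block. Intervals cover the spread between these samples only, and counting error limits values near 3 reads.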

Additional observations from a re-analysis of the deposited data

How the results depend on the processing

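In the reported fit 139 genes were called, 2 of them members, and the same 2 in the wider list of 63 genes. With arrayWeights there were 657 calls, 4 of them members (the 2 of the reported fit, *Heyl* and *Notch1*) and 4 in the list. In that fit the CTX group rested mainly on CTX replicate 3, at a weight of 16.6, and the estimate of the weights had not converged. Without the fold threshold 254 genes were called. With a mean of at least 5 FPKM, where *Notch3* was not tested, 93 genes were called, and with voom 125. In both, 1 member, *Hes1*, was called, and 1 gene of the list. With each sample left out in turn there were 58 to 205 calls, 1 to 2 members and 1 to 2 list genes. The calls numbered 67, 66 and 58 without PBS replicate 1, 2 or 3 and 83 without CTX replicate 3. The cause of these shifts was not tested, except that fewer genes entered under the higher filter.

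With the replicate block 50 genes, 1 member and 1 list gene were called, since *Notch3* had an adjusted p-value of 0.078 (limma). Deviations of same-numbered samples from their group means correlated at 0.056, 0.024 and 0.0058 across genes. With 3 samples in each group and CTX replicate 2 far apart, these values cannot exclude a batch shared by same-numbered samples.

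Direction turned for *Jag1* without CTX replicate 2 (log2 fold change -0.025, from a range of -0.03 to 0.21 over the samples left out) and for the *Jag1* share, from -0.41 percentage points to 1.77, 2.81 and 0.25 without PBS replicate 2, CTX replicate 1 or CTX replicate 3 (-4.30 to 2.81 over the samples left out). The other results of members and shares kept their direction under all alternatives reported. The change in the *Notch2* share ranged from -41.2 to -31.6 percentage points, and that in the *Hes1* share from 4.87 (reads not divided by gene length) to 12.7 (without CTX replicate 2). The planned tests of the rebuilt reads with edgeR and DESeq2 were run but are not reported, since the deposited values are FPKM and not counts. Low counts limited *Nrarp*, *Notch4* and the Delta-like genes, which had under 0.5 FPKM.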
